A study of Mus musculus with 6 samples.

Results

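The genes described here are the 7 mouse genes of the REST, CoREST and SCP phosphatase circuit, which are *Rest*, *Rcor1*, *Rcor2*, *Rcor3*, *Ctdsp1*, *Ctdsp2* and *Ctdspl*. They were chosen by name, as the repressor circuit known to be targeted by miR-124 and miR-9, out of 17766 strand-assigned genes with at least 1 AGO2 cluster in any library. AGO2 is the Argonaute protein that carries a miRNA to its target RNA, and AGO2 eCLIP reads the RNA that is crosslinked to it. In the chimeric form of the assay the miRNA is ligated to its target, so that 1 read can name both. The data were 3 AGO2 IP libraries from whole brain of C57Bl/6J mice at P0, the day of birth, of which 1 was WT and 2 were *Mov10* Deletion (replicates 1 and 2, called DEL1 and DEL2 here), and the study used them to ask how AGO2 binding differs without the RNA helicase MOV10.

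*Mov10* Deletion mice carried a *Mov10* allele with loxP sites around exons 6 and 7, the *Emx1*-Cre transgene, and a second *Mov10* mutant allele from the *Mov10* heterozygous mutant. The study describes *Emx1*-Cre as depleting MOV10 in excitatory neurons of neocortex and hippocampus, so cells of a whole brain in which it was never active keep the floxed allele. It also reports strongly reduced MOV10 protein in brain lysates of newborn *Mov10* Deletion mice. Nothing states that more than 1 brain entered a library, and with 1 WT library no value below has a test between genotypes. Whole brain is also a bulk sample, in which fewer cells of a type and less RNA per cell cannot be told apart. Over all genes the libraries held 359172, 616014 and 616005 AGO2 clusters in WT and in DEL1 and DEL2. The total reads are not in these values, but the steps of the deposited ratios give the worth of a read. In a cluster with 1 IP read and 1 input read, the scaled fold was 0.845 in WT, 1.74 in DEL1 and 2.39 in DEL2, so fewer IP reads reach a given fold in the DEL libraries. *Mov10* itself had 1 enriched cluster of 11 in WT, with a log2 of 4.0, and 0 enriched of 9 in each DEL library. These clusters do not measure its expression and so do not check the genotype. Clusters lay in 8 of 8 neuron markers and 6 of 6 progenitor and glia markers in every library, in 4, 5 and 5 of 5 blood, vessel and immune markers, and in 2 of 3 markers of other organs (*Alb* and *Acta1*, but not *Ins2*).

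REST is a zinc finger protein that binds the regulatory regions of neuronal genes and keeps them silent outside neurons and in progenitors. It does so with corepressors that include the CoREST proteins encoded by *Rcor1*, *Rcor2* and *Rcor3*, which link it to histone deacetylases and a histone demethylase. *Ctdsp1*, *Ctdsp2* and *Ctdspl* encode the small C-terminal domain phosphatases (SCPs), which act with REST to hold down neuronal genes. In differentiating neurons miR-124 and miR-9 bind the mRNAs of several of these repressors, and the 3 SCP genes carry in their introns the genes of the miR-26 family.

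Mature sequences of miRNAs that chimeric reads named on these genes or that the SCP genes host are shown first, because the sites below are read against them. Sequences are those of RefSeq on GRCm38.p6, from 5′ to 3′, with the seed (nucleotides 2 to 8) in capitals:
miR-9-5p: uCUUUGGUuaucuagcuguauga
miR-9-3p: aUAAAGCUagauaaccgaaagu
miR-26a-5p: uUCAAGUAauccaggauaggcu
miR-26b-5p: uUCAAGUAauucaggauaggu
miR-33-5p: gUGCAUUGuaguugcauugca
miR-219a-5p: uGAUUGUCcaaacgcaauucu
miR-99a-5p: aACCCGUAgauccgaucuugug
miR-195a-5p: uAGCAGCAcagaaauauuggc
miR-30c-5p: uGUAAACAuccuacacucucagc
miR-30e-5p: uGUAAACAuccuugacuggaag
The pairs miR-26a-5p and miR-26b-5p, and miR-30c-5p and miR-30e-5p, share a seed, whereas the 2 arms of miR-9 do not.

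Sites were searched as the 7-nt reverse complement of the seed, or a 6-nt part of it, in a GRCm39 3'UTR of each gene. That used was the longest annotated one that lay in a single exon and ended at the 3' end of the gene. In *Rest* it reaches into coding sequence of other annotated transcripts. Clusters there, such as those 3791 to 3848 and 5277 to 5357 nt before the end, are counted below as coding. The strand searched was the sense strand only. The sites shown are the 7-nt matches that lay inside a target cluster of their own miRNA, the 6-nt match to miR-9-5p that lay in such a cluster in all 3 libraries, and 1 match in *Rest* that lay in no cluster. Capitals mark the match and every site is written on the sense strand:
*Rest*, miR-219a-5p, chr5:77432696-77432702: ttctaggctccGACAATCattgtagtgca
*Rest*, miR-9-5p, chr5:77434023-77434029: ttctgaggcaaACCAAAGgtatatttctc
*Rcor1*, miR-9-5p, chr12:111078462-111078467: aagcagctattACCAAAaaaggcataca
*Rcor1*, miR-30c-5p and miR-30e-5p, chr12:111081874-111081880: aagataatgagTGTTTACagtcgccttct
*Ctdsp2*, miR-33-5p, chr10:126833174-126833180: atgcaaatgttCAATGCAagatgtctgtc
*Ctdsp2*, miR-195a-5p, chr10:126833353-126833359: tccttctcggcTGCTGCTcttcctctcca
*Ctdsp2*, miR-26a-5p, chr10:126833435-126833441: agtgttgctctTACTTGAtttgccaaatg
*Ctdspl*, miR-99a-5p, chr9:118872191-118872197: cttaaggtaaaTACGGGTattgcttttaa
These positions are on GRCm39, while all clusters below are on mm10, and the 2 were linked only by their distance from the 3' end of the gene. For scale, 100-nt windows over the 3'UTRs of 20956 genes held GACAATC in 0.319%, ACCAAAG in 0.915%, TGTTTAC in 0.940%, CAATGCA in 0.488%, TGCTGCT in 1.58%, TACTTGA in 0.663% and TACGGGT in 0.0701% of cases. Over the 3 libraries, 19 target clusters in these 3'UTRs made 21 assignments to a miRNA whose seed was searched. The cluster held a 7-nt match to the assigned miRNA in 9 of the 21, a 6-nt match only in 7 and neither in 5. None of the 6 assignments to miR-9-5p had a 7-nt match, and 5 of the 6 had a 6-nt match. Sites of miR-124-3p, miR-320-3p, miR-30b-5p and miR-466i-5p were not searched here, so their absence from the sites shown says nothing about their matches. They made 20 further 3'UTR assignments, 16 of them to miR-124-3p.

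An AGO2 cluster was counted as enriched when its log2 IP over size-matched input and its −log10 p, both as the authors deposited them, were at least 3, that is 8-fold over input. In WT, 18 of the 162 clusters in the 7 genes were enriched (11.1%, 95% exact interval 6.72 to 17.0), beside 2.11% of all clusters of that library. In DEL1, 46 of 281 were enriched (16.4%, 12.2 to 21.2), beside 5.18%. In DEL2, 18 of 281 were enriched (6.41%, 3.84 to 9.94), beside 3.1%. The intervals are exact binomial ones and cover counting error only, and adjoining clusters can hold the same reads. In each library the share in the 7 genes lay above that of the whole library, and the interval of DEL2 lay below that of DEL1. The DEL libraries were not listed independently, since 280 of their 281 clusters in these genes have the same start and end, whereas 0 of the 162 WT clusters share both with a cluster of DEL1.

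By gene, 5 of the 7 held an enriched cluster in WT (*Rcor1*, *Rcor3*, *Ctdsp1*, *Ctdsp2* and *Ctdspl*), beside 20.6% of the protein-coding genes that had any cluster. All 7 did so in DEL1, beside 45.4%, and 5 (*Rest*, *Rcor1*, *Ctdsp1*, *Ctdsp2* and *Ctdspl*) in DEL2, beside 35.7%. The same 5 were enriched in both DEL libraries, beside 27% of protein-coding genes. In all 3 libraries 4 of the 7 (*Rcor1*, *Ctdsp1*, *Ctdsp2* and *Ctdspl*) were enriched, beside 16.6% of protein-coding genes with a cluster in all 3. For *Rcor1* the place differed, since its enriched clusters lay in the 3'UTR in WT and DEL1 but in an intron in DEL2. When a −log10 p of at least 5 or at least 16 IP reads was required, the genes enriched in all 3 were *Ctdsp2* and *Ctdspl* alone. The number of clusters per gene ran from 6 in *Rcor2* to 73 in *Ctdspl* in WT, and a gene with more clusters has more chances to hold an enriched one. *Ctdspl* is also the longest of the 7, at 117584 nt, and *Ctdsp1* the shortest, at 5677 nt.

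**Figure D1:**
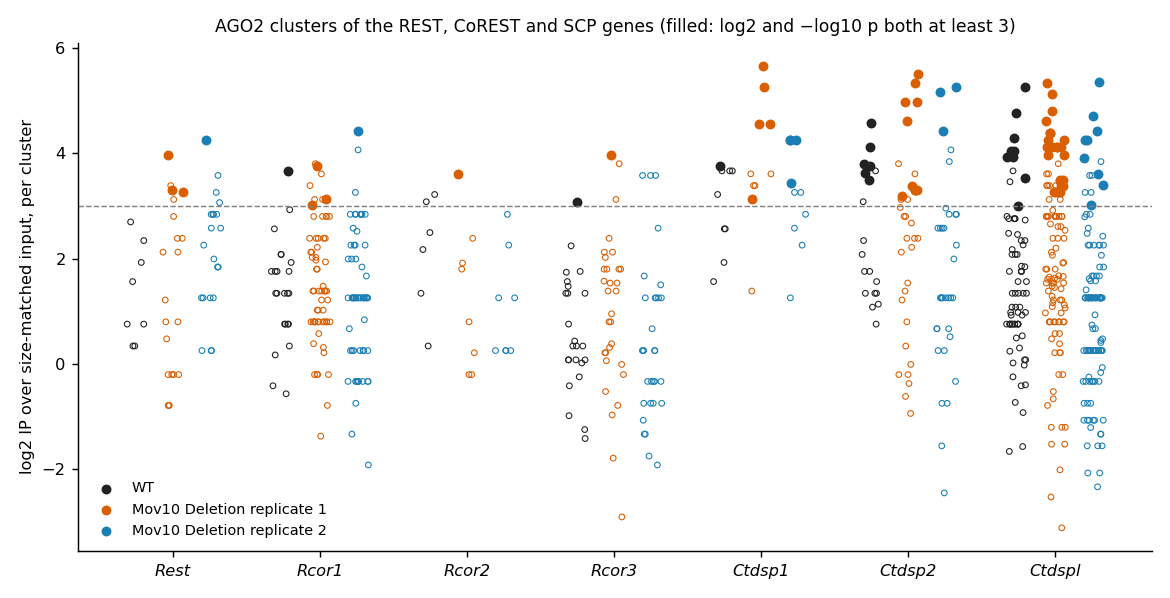
Log2 IP over size-matched input (vertical axis) of every AGO2 cluster in the 7 genes (horizontal axis), with 1 point per cluster and 1 colour per library, and with enriched clusters filled. The dashed line marks a log2 of 3, and the 3 SCP genes at the right hold most of the filled points in every library.

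The enriched clusters lay mostly in 3'UTRs, where miRNA sites usually act. This class takes in the 3'UTRs of every annotated coding transcript, also internal ones, as in *Ctdspl* from 28507 to 32469 nt before the gene end. Among these internal *Ctdspl* clusters only DEL1 had enriched ones, and the enriched clusters just downstream of them counted as intronic. In WT, 13 of 45 clusters in 3'UTRs were enriched (28.9%, 95% exact interval 16.4 to 44.3) against 5 of 108 in introns (4.63%, 1.52 to 10.5), beside 10.2% and 1.41% of such clusters in 6678 protein-coding genes whose features could be placed the same way. In DEL1 the counts were 26 of 69 in 3'UTRs (37.7%, 26.3 to 50.2) and 20 of 197 in introns (10.2%, 6.31 to 15.2), beside 16.2% and 4.34%. In DEL2 they were 10 of 69 (14.5%, 7.17 to 25.0) and 8 of 197 (4.06%, 1.77 to 7.84), beside 9.54% and 2.64%. A higher share in 3'UTRs than in introns was thus common to protein-coding genes, and in DEL2 both shares of the 7 genes had intervals that held the background. No cluster in coding sequence was enriched, out of 9, 13 and 13, which allows shares of up to 33.6%, 24.7% and 24.7% (upper 95% exact bounds), beside 2.17%, 7.43% and 4.09% of coding clusters in the placed genes. The bound for DEL1 lies below the interval of its 3'UTR share. Those for WT and DEL2 lie within theirs, so there no difference from 3'UTRs could be told at this depth. The DEL1 contrast also sets different genes side by side. Its 13 coding clusters lay in *Rest* (5), *Rcor2* (6) and *Rcor3* (2), where 3 of 11, 1 of 2 and 0 of 6 3'UTR clusters were enriched. *Ctdsp1*, *Ctdsp2* and *Ctdspl*, with 3 of 8, 6 of 11 and 10 of 21, had no coding cluster. Gene and feature therefore cannot be told apart here. Within 1000 nt of the 3' end, 6 of 17 clusters were enriched in WT, beside 9.43% of clusters so placed in all protein-coding genes. The corresponding counts were 5 of 25 beside 15.4% in DEL1 and 2 of 25 beside 8.99% in DEL2. At such small counts both are shares near the background, and no interval was computed for this window.

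**Figure D2:**
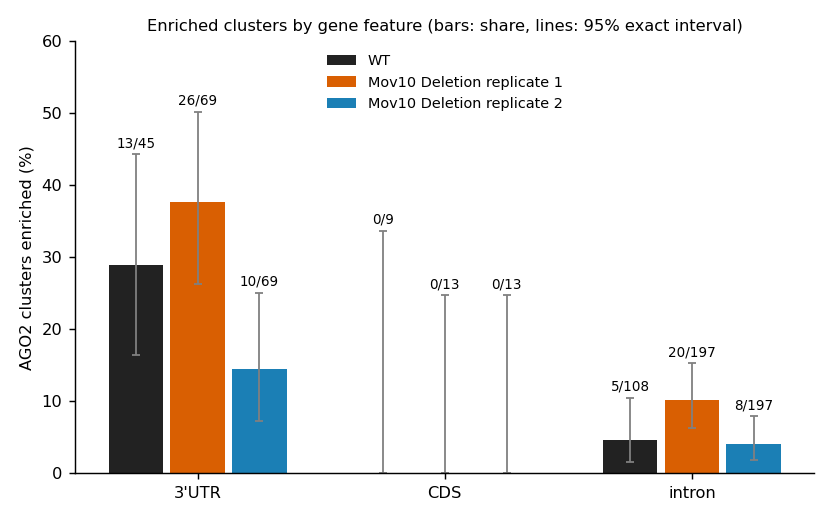
Share of AGO2 clusters enriched (vertical axis, percent) in 3'UTR, coding sequence (CDS) and intron of the 7 genes, with 1 bar per library, 95% exact binomial intervals as lines, and enriched over all clusters as numbers. In every library the bar for 3'UTRs, from 14.5% to 37.7%, stands above that for introns, from 4.06% to 10.2%.

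Joined where they touched or overlapped, the enriched clusters of the 3 libraries made 40 regions, of which 4 were enriched in all 3 libraries, 10 in 2 and 26 in 1. Of the 26, 21 were enriched in DEL1 alone, 3 in WT alone and 2 in DEL2 alone. DEL1 also had the most enriched clusters over all genes, 31892 against 7582 in WT and 19112 in DEL2. Such regions were not counted over all genes, so whether this overlap is particular to these genes was not tested. All 4 regions enriched in every library lay in SCP genes, and 3 of them were in 3'UTRs. They were chr1:74395970-74396098 in *Ctdsp1*, chr10:126997279-126997669 in *Ctdsp2*, and chr9:119042957-119043308 and chr9:119031807-119031840 in *Ctdspl*, the last over a miRNA hairpin in an intron. Both DEL libraries shared 9 regions.

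*Rest*, the repressor itself, held 8 AGO2 clusters in WT and 21 in each DEL library. Its strongest WT cluster, at chr5:77284778-77284926 in the 3'UTR, reached a log2 of 2.69 with a −log10 p of 3.56 (23 IP reads over 3 input reads, both inferred), below the fold required. At the same place, chr5:77284773-77284833, the log2 was 3.30 in DEL1 (17 over 3 reads) and 4.25 in DEL2 (8 over 1 reads), and both were enriched. The 3 values rest on few reads, and the highest ratio has the fewest. In DEL1 the highest log2 of *Rest* was 3.97, at chr5:77283701-77283817, with a −log10 p of 3.11 (9 over 1 reads), where DEL2 gave 1.99 and WT listed no cluster.

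Chimeric reads placed miR-219a-5p on this *Rest* 3'UTR site in WT, with a score of 5.0, and in DEL1, with a score of 7.91. The score is deposited with each target cluster and its definition is not given in the sources used here, so it is used only to describe single clusters. In DEL2 no target cluster was listed in *Rest*. miR-219a-5p is best known from the oligodendrocyte lineage. The only 7-nt match to it in the *Rest* 3'UTR (5723 nt) is the one printed above, which is followed by an A. It lies 1578 to 1584 nt before the gene end, inside both target clusters and inside an AGO2 cluster in every library. Of these AGO2 clusters only that of DEL1 was enriched. In the DEL libraries the match lies in chr5:77284834-77284886, which adjoins the cluster given above. There the log2 was 3.26 in DEL1 (22 over 4 reads) and 3.58 in DEL2 (5 over 1 reads, −log10 p of 1.99). No library listed a target cluster of miR-124-3p, miR-9-5p, miR-9-3p or miR-26 in *Rest*. The single 7-nt match to miR-9-5p in this 3'UTR, 251 to 257 nt before the end, lay in no AGO2 cluster of any library. The 7-nt match to miR-26a-5p, 3094 to 3100 nt before the end, lay in a cluster in all 3 libraries but in no enriched one.

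Among the CoREST genes, *Rcor1* carried the site seen in most layers of the data. Its cluster at chr12:111111969-111112139, the first stretch of the 3'UTR, 3764 to 3934 nt before the gene end, had a log2 of 3.66 in WT (−log10 p of 5.64, 30 over 2 reads). The log2 was 3.76 in DEL1 (−log10 p of 11.7, 39 over 5 reads) and 2.58 in DEL2 (−log10 p of 4.14, 15 over 6 reads), where it missed the fold. WT and DEL1 thus lay close together and DEL2 lower. The highest log2 of *Rcor1* in DEL2 was instead 4.42, in an intron at chr12:111074187-111074316 (9 over 1 reads), where DEL1 gave −0.79 and WT had no cluster.

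On the same *Rcor1* 3'UTR site chimeric reads named miR-9-5p in all 3 libraries, with scores of 10.9 in WT, 29.7 in DEL1 and 3.93 in DEL2. It was the only site in the 7 genes that named miR-9-5p in every library in a 3'UTR. miR-124-3p was named there too, with scores of 7.33 in WT and 12.6 in DEL1, and was not listed in DEL2. The sequence holds a 6-nt match to nucleotides 3 to 8 of miR-9-5p, printed above, and the *Rcor1* 3'UTR of 3989 nt holds no 7-nt match to either arm of miR-9. WT listed 2 further miR-9-5p target clusters in this 3'UTR, with scores of 3.0 and 4.48, and DEL1 a second miR-124-3p one with a score of 4.01. Nearer to the end, from 377 to 488 nt before it, miR-320-3p was named in all 3 libraries, with scores of 3.80 in WT, 12.8 in DEL1 and 4.91 in DEL2. miR-30c-5p and miR-30e-5p were named there in WT and miR-30b-5p in DEL1, all over the miR-30 match printed above. The AGO2 clusters below had a log2 of at most 2.93, 1.94 and 2.52 in the 3 libraries, so none was enriched.

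*Rcor2* and *Rcor3* showed much less. *Rcor2* had no target cluster in any library, and 1 enriched AGO2 cluster, at chr19:7275030-7275144 in its 3'UTR of 569 nt, in DEL1 (log2 of 3.61, 14 over 2 reads). The same cluster gave 2.25 in DEL2 (2 over 1 reads), and the WT cluster nearest to it 3.22 (11 over 1 reads) with a −log10 p of 2.07. The cluster of highest −log10 p in *Rcor2* was in coding sequence in WT (2.89, log2 of 2.49) and in DEL2 (2.83, log2 of 2.84). *Rcor3* was enriched in WT at chr1:192098676-192098776, near its 3' end, with a log2 of 3.08 (20 over 2 reads), where the DEL libraries gave 3.12 and 3.58 with 5 IP reads each and missed the −log10 p. In DEL1 an intron cluster at chr1:192131880-192131959 reached 3.97 (9 over 1 reads), and in DEL2 the highest −log10 p was 2.60, in an intron (log2 of 1.5). Target clusters in *Rcor3* were listed only in the DEL libraries, with miR-19b-3p and miR-124-3p in introns in DEL1 and miR-9-5p in an intron and miR-130a-3p in the 3'UTR in DEL2. Each of these had a score of 5.0 or less.

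**Figure D3:**
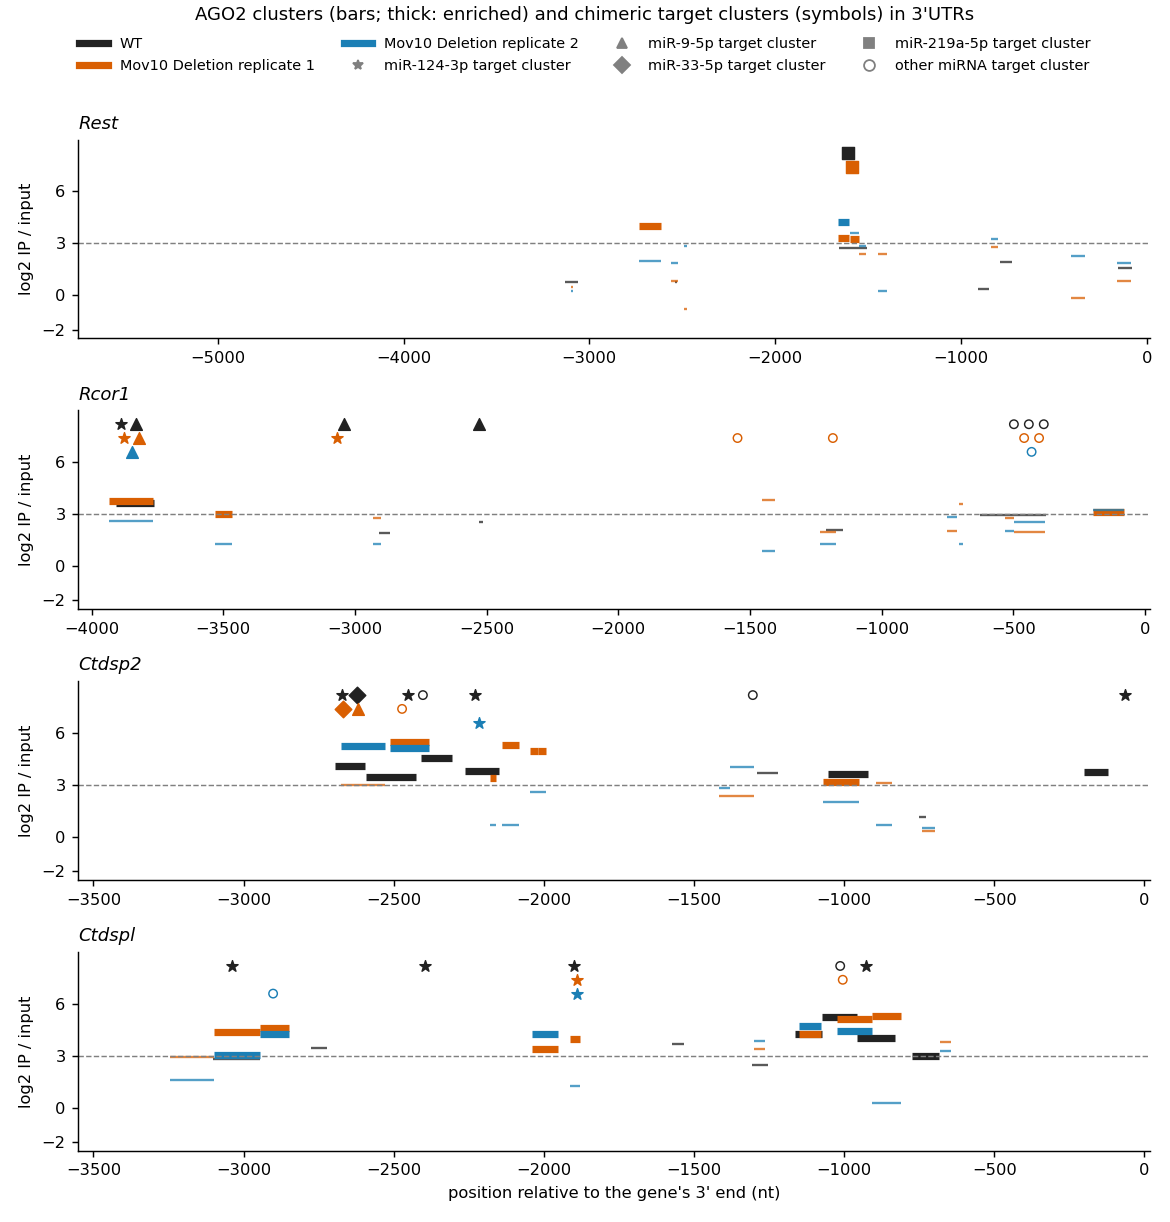
AGO2 clusters as horizontal bars at their log2 IP over input (vertical axis) along the 3'UTRs of 4 of the genes, by position from the gene's 3' end (horizontal axis, nt), with 1 colour per library, thick bars where enriched and a dashed line at a log2 of 3. Symbols above mark target clusters by miRNA in 1 row per library, set side by side where a cluster names several; in *Rcor1* the miR-9-5p triangles of all 3 libraries stand over 1 site at the left, and in *Ctdsp2* and *Ctdspl* the thick bars fall into a few shared stretches.

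Of the SCP genes, *Ctdsp1* is short and held 9 clusters in WT and 10 in each DEL library, of which 1, 5 and 4 were enriched. The 3'UTR region at chr1:74395970-74396098 was enriched in every library, with a log2 of 3.76 in WT (16 over 1 reads), 5.66 in DEL1 (29 over 1) and 4.25 in DEL2 (8 over 1). WT had 2 miR-124-3p target clusters in this 3'UTR, of which that with a score of 3.41 lay over this region and that with a score of 3.0 over a cluster about 100 nt upstream. The upstream cluster, in chr1:74395791-74395903, was enriched in DEL1 only, with a log2 of 5.26 against 1.56 in WT and 2.25 in DEL2. DEL1 named miR-19b-3p in the 5'UTR, and DEL2 had no target cluster in *Ctdsp1*.

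*Ctdsp2* had 6 enriched clusters of 19 in WT, 10 of 34 in DEL1 and 3 of 34 in DEL2. Its region at chr10:126997279-126997669, from 2307 to 2697 nt before the gene end, was enriched in all 3 libraries. In WT it consisted of 3 adjoining clusters with a log2 of 4.11, 3.48 and 4.56, over 41, 53 and 28 IP reads. The first *Mov10* Deletion cluster in it, chr10:126997299-126997447, had a log2 of 2.97 in DEL1 (27 over 6 reads) and 5.25 in DEL2 (32 over 2 reads). The second, chr10:126997465-126997594, had 5.50 (26 over 1) and 5.16 (15 over 1). The replicates therefore differed at the first and were alike at the second, and the first rests on similar IP reads over different input reads.

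The same region carried 4 of the 7 miRNA assignments of *Ctdsp2* in WT and all 3 in DEL1. DEL2 listed no target cluster in it. miR-33-5p, a miRNA known from an intron of a cholesterol-regulating gene, was named with a score of 21.4 in WT and 24.2 in DEL1, over a 7-nt match followed by an A. The AGO2 cluster over this match was enriched in WT and DEL2 but not in DEL1, where its log2 was 2.97. miR-124-3p was named on the region in WT in 2 target clusters, with scores of 7.51 and 15.7, and miR-26a-5p in the second of these with 4.78. DEL1 added miR-9-5p (score of 5.84, with no match inside the cluster) and miR-195a-5p (4.94, over the match printed above). The miR-26a-5p match printed above lies in that WT target cluster and in the cluster of the DEL libraries that was enriched in both. The next region, chr10:126997715-126997827 in WT, had a log2 of 3.80 (33 over 2 reads) and a miR-124-3p target cluster with a score of 3.62. Over the same stretch DEL2 named miR-124-3p with a score of 7.72, although it listed no AGO2 cluster under that target cluster. A further WT target cluster of miR-124-3p, with a score of 5.78, lay in the last 100 nt of the gene, where no AGO2 cluster was listed.

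*Ctdspl*, the longest gene, held 73, 115 and 115 clusters, of which 9, 23 and 9 were enriched. Its 3'UTR region at chr9:119042957-119043308 was enriched in every library and gave the highest log2 of the gene in WT, 5.25 (45 over 1 reads), and in DEL1, 5.32 (23 over 1), with 4.71 in DEL2 (11 over 1). These 3 values come from different clusters of the stretch. The value of 5.32 in DEL1 is that of its last cluster, chr9:119043214-119043308, where DEL2 had 0.25 (1 over 2 reads), while the first, chr9:119042969-119043043, had 4.26 in DEL1 (11 over 1) and 4.71 in DEL2. WT chimeric reads named miR-99a-5p there with a score of 5.82, over the only sequence printed that fewer than 1 in 1000 windows hold, and miR-124-3p with 3.65. DEL1 named miR-9-3p with 5.0, without a match inside the cluster.

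A second stretch of the *Ctdspl* 3'UTR, from 1845 to 1933 nt before the end, named miR-124-3p in all 3 libraries, with scores of 6.17 in WT, 8.52 in DEL1 and 3.0 in DEL2. It was the only place in the 7 genes where every library named miR-124-3p. The AGO2 cluster there had a log2 of 3.97 in DEL1 (9 over 1 reads) and 1.25 in DEL2 (2 over 2 reads), and WT listed none. Between 2944 and 3101 nt before the end, at chr9:119041019-119041176, WT had a log2 of 2.80 with a −log10 p of 5.11 (33 over 4 reads) and miR-124-3p with a score of 6.88. The *Mov10* Deletion cluster at chr9:119041023-119041174 was enriched in both libraries, with 4.38 (24 over 2) and 3.02 (17 over 5). Besides these, miR-124-3p was named in WT from 2358 to 2430 nt before the end (score of 3.22) and in DEL1 in an intron, from 88110 to 88151 nt before it (4.58), both without an AGO2 cluster.

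Far from the annotated gene end, *Ctdspl* held a group of intronic clusters at chr9:119017820-119018996, some 25124 to 26300 nt before it. The one with the highest −log10 p of all clusters in the 7 genes lay here, in chr9:119018702-119018996, where WT had a log2 of 4.76 and the −log10 p was 21.2 (96 over 3 reads). The same stretch reached 2.80 in DEL1 (40 over 10 reads) and 3.91 in DEL2 (44 over 7 reads), so it was enriched in WT and DEL2 only. The adjoining stretch, chr9:119018426-119018683, was enriched in DEL1 only, with 3.47 (51 over 8 reads) against 2.73 in WT and 2.79 in DEL2. It was in the former stretch, chr9:119018702-119018996, that WT named miR-124-3p, with a score of 3.25. Further upstream, from 91550 to 91659 nt before the end, miR-9-5p was named in an intron with scores of 3.03 in WT and of 5.16 and 24.0 in 2 target clusters of DEL1, and DEL2 listed none. The AGO2 clusters at the miR-9-5p site had a log2 of 1.76 in WT, 3.26 in DEL1 and 1.67 in DEL2. At 102939 to 103015 nt before the end, also in an intron, miR-466i-5p was named in all 3 libraries, with scores of 4.80, 4.88 and 8.0 and no enriched AGO2 cluster.

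The miR-26 genes in introns of the 3 SCP genes had AGO2 clusters in every library, all placed on the 5′ arm, which gives the mature miR-26a-5p or miR-26b-5p printed above. At *Mir26a-1* in *Ctdspl* the log2 was 3.93 in WT (18 over 1 reads), 4.80 in DEL1 (16 over 1) and 5.34 in DEL2 (17 over 1), and all 3 were enriched. At *Mir26b* in *Ctdsp1* it was 3.66 in WT (15 over 1, with a −log10 p of 2.82, short of the threshold), 4.55 in DEL1 (27 over 2) and 4.25 in DEL2 (8 over 1). At *Mir26a-2* in *Ctdsp2* it was 1.76 in WT (4 over 1), 4.61 in DEL1 (14 over 1) and 4.42 in DEL2 (9 over 1). All 3 loci were thus lower in WT than in both DEL libraries on the log2 scale, but at *Mir26a-1* the IP reads were nearly equal, and a read over 1 input read is worth more in the DEL libraries. *Mir26a-1* and *Mir26a-2* give the same mature sequence, so how reads were shared between them is uncertain. Without the clusters on miRNA genes, each of the 3 libraries kept the same member genes as enriched.

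Taking all target clusters, the 7 genes had 20 in WT, 17 in DEL1 and 12 in DEL2, with 25, 20 and 12 miRNA assignments. miR-124-3p made up 12 of 25 assignments in WT (48.0%, 95% exact interval 27.8 to 68.7), 5 of 20 in DEL1 (25.0%, 8.66 to 49.1) and 2 of 12 in DEL2 (16.7%, 2.09 to 48.4). Over all genes its shares were 42.2%, 34.8% and 36.8%, inside each of these intervals, so no difference between the 7 genes and the whole library was detectable at this depth. The 3 intervals also overlap one another. miR-9-5p made up 4 of 25, 4 of 20 and 2 of 12 (16%, 20% and 16.7%), beside 9.12%, 6.69% and 6.86% over all genes, which also lie inside its intervals, since these start at 4.54, 5.73 and 2.09. By gene, miR-124-3p was named in 4 of the 7 in WT (*Rcor1*, *Ctdsp1*, *Ctdsp2* and *Ctdspl*), beside 33.9% of protein-coding genes with an AGO2 cluster. It was named in 3 in DEL1 (*Rcor1*, *Rcor3* and *Ctdspl*), beside 34%, and in 2 in DEL2 (*Ctdsp2* and *Ctdspl*), beside 21.2%. *Rest* and *Rcor2* had none in any library. The miR-26 family, whose genes lie inside the SCP genes, was named once, in *Ctdsp2* in WT, where no target cluster named it in the DEL libraries.

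**Figure D4:**
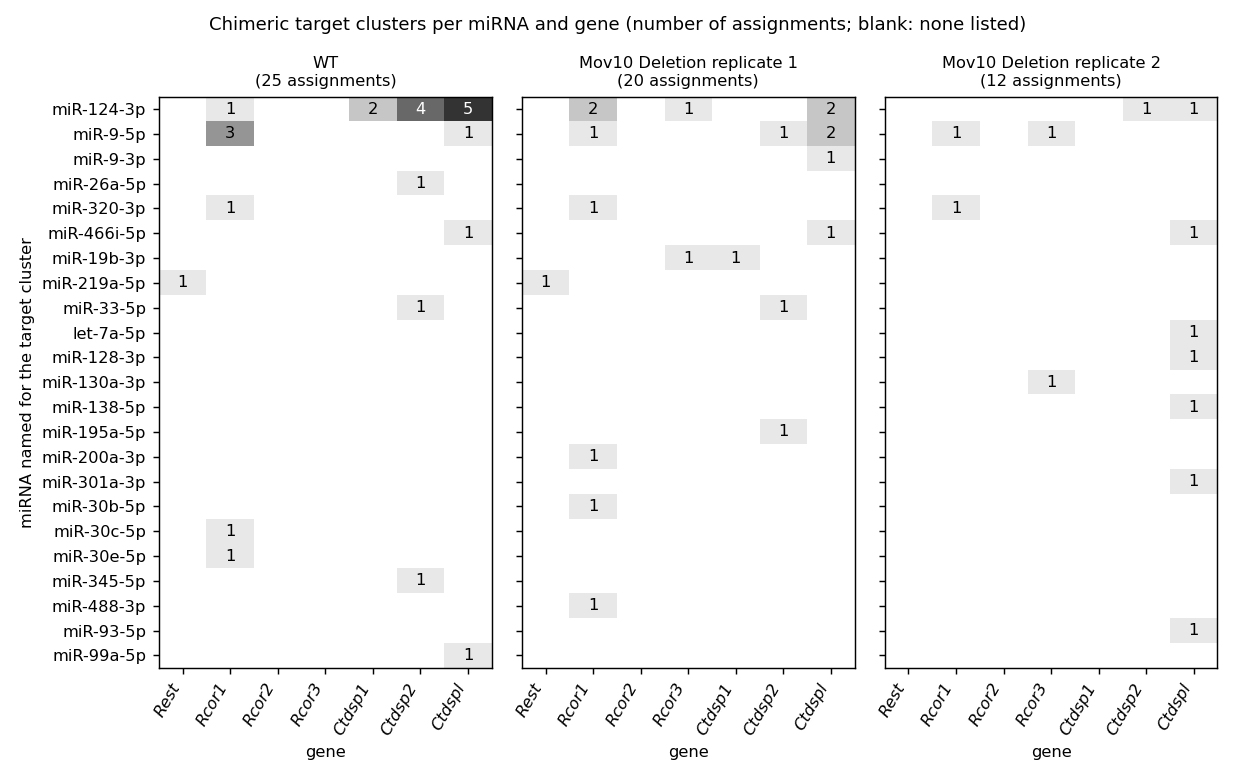
Number of miRNA assignments of chimeric target clusters for each miRNA (rows) and gene (columns) in each library, with blank cells where none was listed. The miR-124-3p row holds 12 assignments in WT, 5 in DEL1 and 2 in DEL2, and the columns of *Rest* and *Rcor2* hold no miR-124-3p.

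Other genes that work with REST or oppose it were counted whole, as a list of 31. Every one had an AGO2 cluster in every library, and 6 held an enriched one in WT, 22 in DEL1 and 15 in DEL2, of which 13 in both DEL libraries and 5 in all 3. Beside the shares for protein-coding genes given above, the WT count and the count for all 3 are near the background. The counts for DEL1, DEL2 and both DEL libraries lie above theirs (45.4%, 35.7% and 27%), which was not tested. Of 17 corepressors and chromatin partners, 4, 12 and 8 were enriched, of 9 genes of REST turnover and splicing 1, 7 and 5, and of 4 genes of the switch to neuronal splicing and chromatin 1, 3 and 2. Those enriched throughout included *Ptbp1*, a splicing repressor known as a miR-124 target, with best log2 values of 6.34, 5.95 and 6.46 and 4 of 5, 11 of 12 and 5 of 12 clusters enriched. *Ehmt1*, a histone methyltransferase, had 5.24, 5.80 and 5.58. *Srrm4*, a neuronal splicing factor that alters the *Rest* mRNA, had 3.76, 4.71 and 4.71, and *Phf21a*, a subunit of the CoREST demethylase complex, 3.15, 5.38 and 3.58. miR-124-3p was named in 19, 17 and 11 of the 31, beside 33.9%, 34% and 21.2% of protein-coding genes with an AGO2 cluster. *Ctdspl2*, a relative of the SCP genes, had 16, 32 and 32 clusters and none enriched.

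*Ctdspl*, with best log2 values of 5.25, 5.32 and 5.34, was the member whose lowest value over the 3 libraries was highest. The values in WT and DEL1 are those of the 3'UTR, but that in DEL2 is the cluster on the *Mir26a-1* hairpin, and its best DEL2 cluster elsewhere had 4.71. Among 2994 protein-coding genes with a cluster of −log10 p of at least 3 in each library, those nearest to it by Euclidean distance over the 3 libraries were *Grik4* (distance of 0), *D430041D05Rik* (0.122) and *Nfatc3* (0.176). The ratios move in steps of whole reads, so that *Grik4* and *Ctdspl* could have the same 3 values, and this likeness rests on the hairpin cluster in DEL2. *Grik4* encodes a kainate receptor subunit and *Nfatc3* a transcription factor that calcium signalling activates.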

How the data were processed

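AGO2 chimeric eCLIP clusters of 3 IP libraries were analysed, with the 3 size-matched inputs present only inside the deposited ratios. The authors pruned UMIs (UMI-tools 1.1.1), trimmed adapters (cutadapt 3.2), removed repeat reads, mapped to mm10 (STAR 2.7.7a), dropped PCR duplicates and used CLIPper to call clusters. The authors deposited each cluster's log2 IP over input and its −log10 p-value. For chimeric reads the authors matched miRNAs with Bowtie 1.2.3, and deposited a miRNA name and a score, whose definition is not given in the sources used here. Whether both *Mov10* Deletion brains were called together is not given either.

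Clusters were assigned with bedtools 2.31.1 to RefSeq gene bodies of GRCm38.p6 on the same strand, with strands from RefSeq tables or GENCODE vM39 by symbol. IP and input reads were inferred as the whole numbers that give both deposited values, a step tested on simulated data, and 1 input read is the lowest that occurs. UTRs, CDS and introns came from GENCODE vM39 (GRCm39), placed by distance from anchors shared with mm10, and the shares by feature over all genes use the 6678 protein-coding genes, of 14371 with a cluster, where such an anchor matched an annotated transcript end. Enriched meant at least 3 for the log2 and for the −log10 p. For each gene and library the text names the enriched cluster of highest log2, else that of highest log2 with a −log10 p of at least 3, else that of highest −log10 p with a log2 above 0, and then target clusters of miR-124, miR-9 and miR-26, other miRNAs with at least 2 assignments in a library, and clusters on hairpins. Other clusters and target clusters named were chosen after their values were seen. From the list of 31, genes enriched in all 3 libraries are named, except 1 that is not reported here. The members and lists were chosen with earlier results of these data known. No p was computed, since WT had 1 library, and intervals are exact binomial ones (SciPy 1.17.1). Alternatives changed the thresholds, the window, the overlap, the reads required and the way assignments were counted.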

Additional observations from a re-analysis of the deposited data

How the results depend on the processing

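No paired analysis was possible because the input libraries entered only within the ratios and WT had 1 library. Of 53 alternatives, 37 stayed within 1.5 times the count, or within the interval of the share, and 16 moved further. With a −log10 p of at least 5, 3 genes in WT and 2 in DEL2 held an enriched cluster, and the enriched clusters fell to 11, 23 and 7 in WT, DEL1 and DEL2. *Rcor1* and *Ctdsp1* were then no longer enriched in all 3 libraries, whereas *Ctdsp2* and *Ctdspl* were. When 16 or more IP reads were required, 2 genes in DEL2 and 25 and 6 clusters in DEL1 and DEL2 remained above the threshold. WT stayed at 18 by construction, since its enriched clusters held 16 or more. With a log2 of at least 2, *Rest* was also enriched in all 3 libraries. Within 500 nt of the 3' end 2, 2 and 0 clusters were enriched, and within 2000 nt 14 in DEL1 and 6 in DEL2. With a score of at least 5, 8, 10 and 4 target clusters were left. Without DEL1 the genes enriched in the other were 5, and without DEL2 they were 7. The miR-124-3p share ran from 48.0% to 60% in WT, 16.7% to 28.6% in DEL1 and 16.7% to 25.0% in DEL2. Depth limits all of this, since the median enriched cluster held 29, 17 and 9 inferred IP reads, and 7 of 18, 19 of 46 and 12 of 18 stood over 1 input read.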
